A study of Danio rerio with 9 samples.

Results

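Zebrafish embryos of the TU strain that had developed a deformed tail (P1) were compared directly with embryos of the same exposure that had developed a deformed yolk (P2). Both groups were exposed from 4 h post fertilisation to coal extracted with methanol and taken up in DMSO, at 100 mg/L, and both were sampled whole at 24 h. The members are the 5 libraries with these labels among 9 in the series, 3 of P1 and 2 of P2, and gene counts were joined by gene identifier over 32312 genes. The control, 1 pooled library of embryos labelled normal at the same age, serves only to show the direction of each phenotype. No source used here says whether the control was given DMSO. The remaining 3 libraries (P3, small embryos with extruded yolks) helped to estimate the spread. Each phenotype group was a pool of 50 embryos that was picked by its malformation after exposure. A difference between P1 and P2 therefore compares embryos that took different courses under 1 treatment, not a treatment against its absence, and nothing in the labels says that the libraries of a group came from separate clutches. P-values then measure only the spread between these libraries, which may be technical.

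At 24 h a zebrafish embryo has a beating heart, contracting trunk muscle, a lens that has begun to make crystallins and the first pigment cells, and its tail has nearly stopped adding segments. It still feeds from the yolk through the yolk syncytial layer, a nucleated layer that takes up yolk and secretes lipoproteins and plasma proteins. Coal holds polycyclic aromatic hydrocarbons, some of which activate the aryl hydrocarbon receptor (AHR), a transcription factor that induces cytochrome P450 genes of the CYP1 family. Low oxygen is sensed by another pathway, in which prolyl hydroxylases mark the factor HIF for recognition by the VHL protein and destruction, and HIF that escapes drives genes of glycolysis, growth restraint and its own feedback.

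The P1 libraries held 17198110, 14719252 and 15227316 counts, and the P2 libraries 16267045 and 18358853 counts. A read was found for 23457 to 23713 genes in P1 and for 23680 to 23822 in P2. Of 38 entries for preset markers of 12 embryonic tissues, 35 could be matched. The marker hbbe1.1 fills a pair of these entries, under different gene identifiers. Of the matched entries, 1 (ttr) had a library without a read. The SD of the log2 difference between single libraries was 0.318 to 0.333 across the groups, against 0.187 to 0.195 within P1 and 0.164 within P2. On the first principal component, which held 38.7% of the variance, the P1 libraries stood between -14.0 and -8.8, the P2 libraries at 34.9 and 33.8, and the control at -63.2. The 5 libraries thus fell into their labelled groups, with P2 farther from the control on that axis. Counts are given as CPM, which puts every library on a common size after TMM scaling, and each contrast as the log2 fold change of P1 over P2 ± its standard error from edgeR, so that a negative value means lower in P1.

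Of 19835 genes tested, 4072 (20.5%) differed between P1 and P2 at an edgeR adjusted p below 0.05. In P1, 2106 (10.6%) were higher and 1966 (9.91%) lower, and the median log2 fold change over all tested genes was 0.0034. Most differences were small, with a median size of 0.44 on the log2 scale among the called genes, and 657 genes differed at least 2-fold (368 higher and 289 lower in P1). The libraries of P1 and P2 did not overlap for 4069 of the 4072 called genes. The calls were made on these same libraries, so this count is no separate support for them. The share without overlap among all tested genes is not given here. Without P2 replicate 0, 915 genes were higher and 810 lower in P1, and without P2 replicate 1, 968 and 880. In those fits the lone P2 library was assumed to vary like the other groups. The shares of 10.6% and 9.91% are the background for every list below, and a list whose shares lie near them does not stand out. They include weakly expressed genes. Among genes averaging over 5 CPM, 11.9% were higher and 11.2% lower in P1 at 1000 to 2000 exonic bases. The shares were 15.5% and 9.74% at 2000 to 3000 bases, and 14.3% and 11.1% at 3000 to 5000. A list share only a little above the background therefore does not stand out either. By list, muscle, lens, pigment, neuronal and chaperone genes, mitochondrial transcripts and secreted proteins of the yolk layer were more often higher than lower in P1, and vessel, tailbud, anterior hox, clock and p53 genes were more often lower in P1 than higher.

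**Figure D1:**
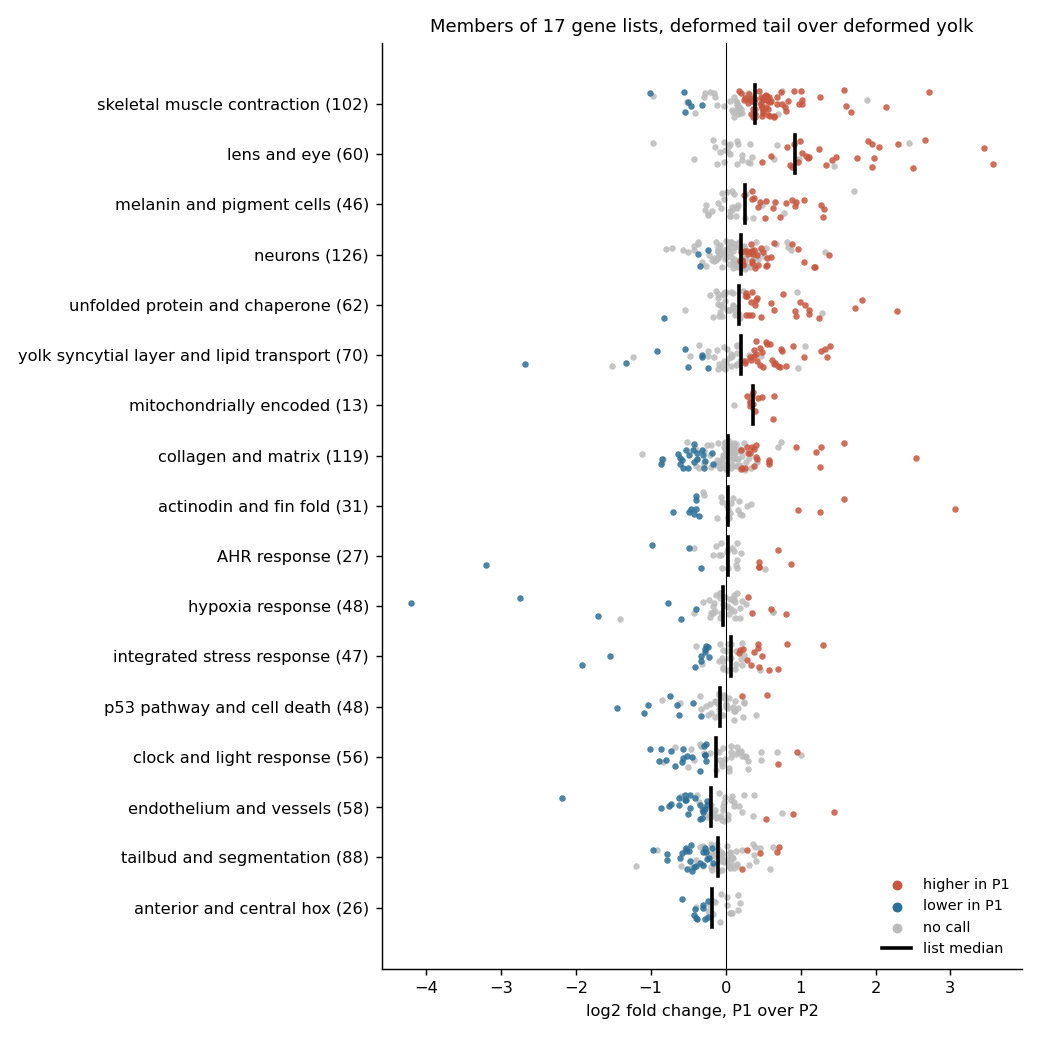
Log2 fold change of P1 over P2 (horizontal axis) for the tested members of 17 gene lists, with the number tested in brackets. Red points were higher in P1, blue points lower in P1 and grey points had no call, black bars are list medians, and 5 lens genes without a read in P2 are not drawn. The medians of the muscle and lens lists lie to the right of 0, at 0.39 and 0.92, and single genes of the hypoxia list reach -4.20.

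Several of the largest differences were in genes that HIF drives. The prolyl hydroxylase gene egln3 (ENSDARG00000032553, chromosome 17, 9776764 to 9794821, minus strand), whose product marks HIF for destruction and which is itself a HIF target, had 2.96, 2.57 and 2.58 CPM in P1, 50.7 and 49.6 CPM in P2 and 13.2 CPM in the control. It was 18.4-fold lower in P1 (-4.20 ± 0.14, edgeR adjusted p = 4.3e-12), and the control lay between the 2 phenotypes. The ankyrin repeat gene ankrd37 (ENSDARG00000056376, chromosome 1, 16437321 to 16440668, plus strand), a HIF target in human cells, had 5.75, 5.42 and 6.36 CPM in P1, 38.9 and 39.6 CPM in P2 and 7.85 CPM in the control (-2.75 ± 0.10, edgeR adjusted p = 4.3e-12). For ddit4 (ENSDARG00000037618, chromosome 12, 49633438 to 49635557, plus strand), which encodes a restrainer of the growth kinase complex mTORC1, the libraries held 14.9, 18.4 and 20.7 CPM in P1, 59.9 and 57.7 CPM in P2 and 11.4 CPM in the control (-1.71 ± 0.10, edgeR adjusted p = 3.4e-09). P1 was thus below the control for egln3 and ankrd37 and above it for ddit4, and P2 was above it for all of them.

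Other hypoxia genes moved less. The gene vhl, whose product recognises hydroxylated HIF, was lower in P1 (-0.77 ± 0.13, edgeR adjusted p = 0.00055), as were p4ha1b, a subunit of the collagen prolyl hydroxylase (-0.39 ± 0.06), and igfbp1a, a binding protein of insulin-like growth factors (-0.59 ± 0.12). Transcripts of the oxygen-regulated subunit gene hif1ab stood at 138, 137 and 137 CPM in P1, 124 and 134 CPM in P2 and 131 CPM in the control, with no call (0.10 ± 0.06, edgeR adjusted p = 0.28). In all, 6 of 48 hypoxia genes were lower and 4 higher in P1, with a median log2 fold change of -0.03. The higher ones were ca9, stc2a, p4ha2 and kdm5bb, with log2 fold changes of 0.80, 0.61, 0.35 and 0.30. The higher ones numbered 1 without P2 replicate 0 and 1 without P2 replicate 1.

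Regulators of translation under stress were split. PPP1R15A (ENSDARG00000069135, chromosome 7, 75191966 to 75197308, plus strand), the phosphatase subunit that reverses phosphorylation of the initiation factor eIF2α, had 22.1, 22.4 and 23.9 CPM in P1, 84.1 and 88.6 CPM in P2 and 27.2 CPM in the control (-1.92 ± 0.07, edgeR adjusted p = 4.3e-12). The kinase gene mknk2b, whose product phosphorylates the initiation factor eIF4E, had 71.6, 66.2 and 69.7 CPM in P1, 202 and 201 CPM in P2 and 65.9 CPM in the control (-1.54 ± 0.06, edgeR adjusted p = 5.7e-12). Its paralogue mknk2a went the other way, at 10.7, 11.5 and 10.8 CPM in P1, 4.45 and 4.51 CPM in P2 and 11.2 CPM in the control (1.29 ± 0.12, edgeR adjusted p = 1.7e-06). The P2 libraries were the ones that departed from the control in each of these genes, while P1 lay close to it. The glutathione-degrading enzyme gene chac1, a target of the stress factor ATF4, was at 227, 224 and 243 CPM in P1, 128 and 134 CPM in P2 and 163 CPM in the control and higher in P1 (0.82 ± 0.07, edgeR adjusted p = 3.6e-07), and so was the mitochondrial folate enzyme gene mthfd1l (0.58 ± 0.06). Across the integrated stress response, 14 of 47 genes were higher and 10 lower in P1 (median 0.07). The higher stress genes numbered 8 without P2 replicate 0 and 8 without P2 replicate 1. The lower ones numbered 5 without P2 replicate 0 and 6 without P2 replicate 1.

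Genes of the p53 pathway and cell death were lower in P1 more often than higher. The survival gene mcl1b had 36.3, 40.2 and 41.0 CPM in P1, 109 and 106 CPM in P2 and 39.7 CPM in the control (-1.46 ± 0.07, edgeR adjusted p = 1.3e-10). The death-promoting gene bbc3 (-1.09 ± 0.10), the cell cycle inhibitor cdkn1a (-1.03 ± 0.09), the p53 target RPS27L (-0.74 ± 0.09) and the cyclin gene ccng2 (-0.63 ± 0.08) were lower in P1 too. For cdkn1a the libraries held 12.1, 13.2 and 13.9 CPM in P1, 25.7 and 27.6 CPM in P2 and 6.93 CPM in the control, so both phenotypes were above the control and P2 was farther from it. The list had 8 lower and 2 higher genes of 48, with a median of -0.07, and the lower calls numbered 8 without P2 replicate 0 and 8 without P2 replicate 1, the higher ones 1 without P1 replicate 1, 1 without P1 replicate 2, none without P2 replicate 0 and 1 without P2 replicate 1. The p53 antagonist gene mdm2 had no call (-0.08 ± 0.08, edgeR adjusted p = 0.49), and its groups overlapped at 101, 114 and 119 CPM in P1 against 117 and 119 CPM in P2.

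Chaperone transcripts were more often higher than lower in P1. Of 62 tested chaperone and unfolded protein genes, 25 were higher and 1 was lower, a median of 0.17, and the higher calls numbered 18 without P2 replicate 0 and 18 without P2 replicate 1. The small heat shock protein gene hspb9 (ENSDARG00000078674, chromosome 3, 33437532 to 33438196, plus strand) had 51.6, 44.99 and 37.5 CPM in P1, 8.65 and 9.61 CPM in P2 and 60.8 CPM in the control (2.29 ± 0.19, edgeR adjusted p = 3.6e-07). P1 was below the control and P2 stood far below both. The gene hsp70.3, which encodes an inducible 70 kDa chaperone, had 8.42, 10.09 and 8.01 CPM in P1, 2.01 and 2.93 CPM in P2 and 5.18 CPM in the control (1.82 ± 0.27, edgeR adjusted p = 0.00012), so that P1 was above and P2 below the control. Its close copies can share reads, which makes the value uncertain, and the related gene hsp70l had few reads and no call, with 0.639, 0.678 and 0.397 CPM in P1, 0.548 and 0.434 CPM in P2 and 0.167 CPM in the control.

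Further members of the list were higher as well. The co-chaperone gene dnajb1b had 69.9, 81.2 and 70.28 CPM in P1, 36.2 and 37.6 CPM in P2 and 42.3 CPM in the control (1.00 ± 0.11, edgeR adjusted p = 7.6e-06), the small heat shock gene hspb11 a log2 fold change of 1.06 ± 0.12, and the endoplasmic reticulum genes hsp90b1 and pdia3, for a chaperone and a disulfide isomerase, 0.60 ± 0.07 and 0.47 ± 0.06. The lower member was fkbp5 (-0.82), an immunophilin gene known as a glucocorticoid target, which is named because it was the only lower one. The lower calls of the list numbered none without P2 replicate 0 and 2 without P2 replicate 1. The co-chaperone gene dnajc7, which is not in the list, was lower in P1 by more (-1.84 ± 0.13, edgeR adjusted p = 7.4e-08). The collagen chaperone gene hsp47 (ENSDARG00000019949, chromosome 15, 28732298 to 28736597, minus strand) had 179.9, 236 and 197 CPM in P1, 76.8 and 68.8 CPM in P2 and 164 CPM in the control (1.49 ± 0.18, edgeR adjusted p = 1.6e-05), with P1 above and P2 below the control.

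**Figure D2:**
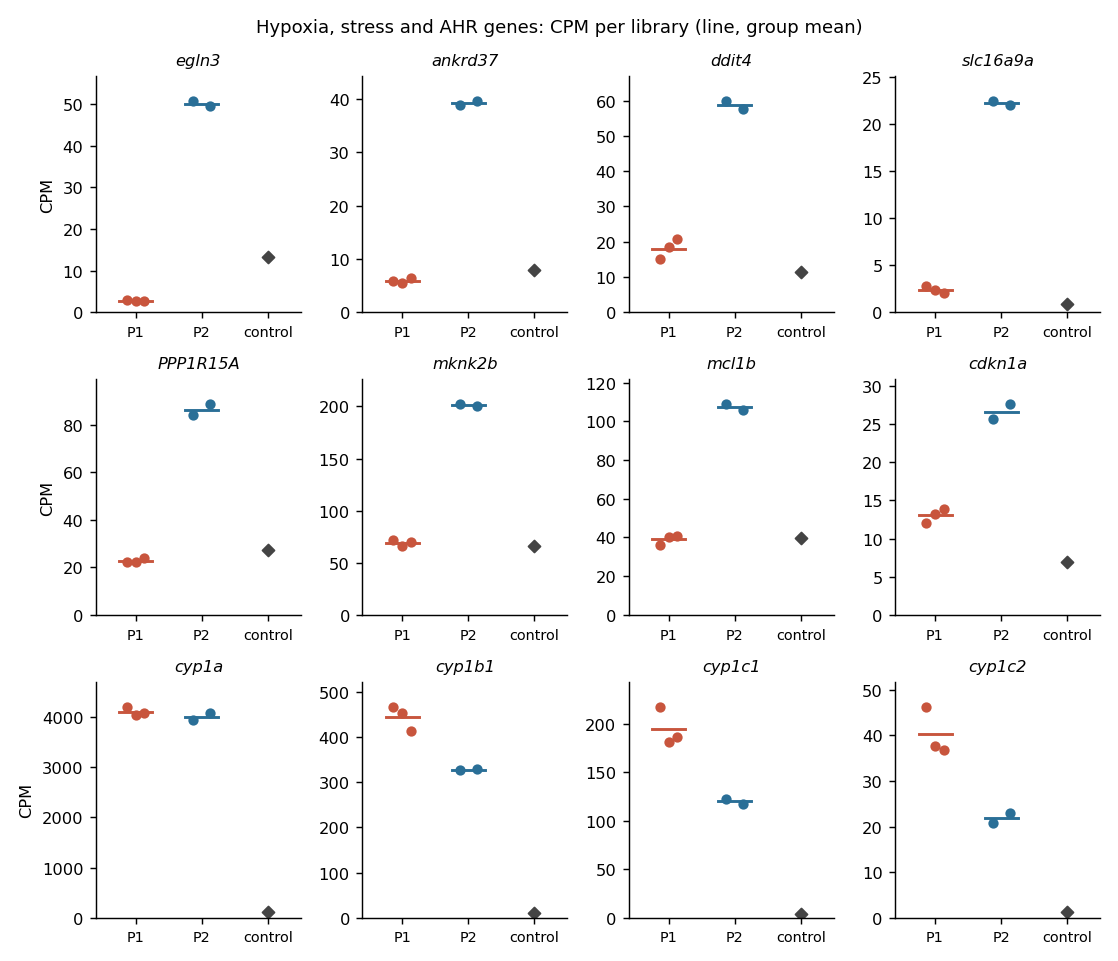
CPM per library (vertical axis from 0, scale differing by gene) of 12 hypoxia, stress and AHR genes in P1, P2 and the control, with lines at the group means. P2 stands apart from P1 and the control for egln3, ankrd37, slc16a9a, PPP1R15A, mknk2b and mcl1b, and cyp1a lies between 3929 and 4189 CPM in both phenotypes.

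The hallmark gene of the AHR response stood far above the control in both phenotypes, with no call between them. This gene, cyp1a (ENSDARG00000026039, chromosome 18, 4974676 to 4985566, plus strand), a hydrocarbon-metabolising P450, had 4189, 4028 and 4071 CPM in P1, 3929 and 4078 CPM in P2 and 119 CPM in the control. The P1 and P2 libraries overlapped, and the difference was 0.03 ± 0.06, edgeR adjusted p = 0.74. In the authors' deposited table the log2 ratio of cyp1a over the control is 4.77 in P1 and 4.21 in P2, on the variance-corrected scale of that table, while the CPM values of the phenotypes nearly coincide. Its relatives were higher in P1: cyp1b1 had 466, 453 and 415 CPM in P1, 327 and 329 CPM in P2 and 11.02 CPM in the control (0.44 ± 0.07, edgeR adjusted p = 0.00021). The genes cyp1c1 (0.70 ± 0.12, edgeR adjusted p = 0.00053) and cyp1c2 (0.87 ± 0.14, edgeR adjusted p = 0.00035) are close copies of each other, and reads shared between them make both values uncertain.

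Other AHR genes gave mixed differences. The gene cyp1d1, which is not known to be AHR-inducible in zebrafish, was lower in P1 (-0.49 ± 0.15, edgeR adjusted p = 0.033), a call that was lost without P1 replicate 0, P1 replicate 2 or either P2 replicate. The receptor gene ahr2 (-0.06 ± 0.09, edgeR adjusted p = 0.68) and tiparp, whose product restrains the receptor (0.15 ± 0.06, edgeR adjusted p = 0.075), had no call. Transporter genes of the monocarboxylate family were lower in P1: slc16a9a (ENSDARG00000013926, chromosome 17, 20483927 to 20496769, minus strand) had 2.73, 2.37 and 2.05 CPM in P1, 22.4 and 21.997 CPM in P2 and 0.835 CPM in the control (-3.21 ± 0.13, edgeR adjusted p = 3.9e-11). Its relative slc16a9b had 40.5, 43.7 and 44.7 CPM in P1, 85.3 and 84.0 CPM in P2 and 4.51 CPM in the control (-0.98 ± 0.06, edgeR adjusted p = 2e-08). Both phenotypes exceeded the control for these transporters, and P2 exceeded it more. The pair is also in the list of glucose metabolism, so it counts among the lower genes of both lists. Over the 27 AHR genes, 5 were higher and 4 lower in P1 (median 0.03), and the lower calls numbered 2 without P2 replicate 0 and 3 without P2 replicate 1.

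Other xenobiotic metabolism genes gave 8 calls each way in P1 of 68 (median 0.07). The lower xenobiotic calls numbered 5 without P2 replicate 0 and 4 without P2 replicate 1, and the higher ones 8 without P2 replicate 0 and 6 without P2 replicate 1. The glucuronosyltransferase gene ugt1b4 (0.46 ± 0.06), the P450 genes cyp2aa8 (0.63 ± 0.07) and cyp2aa1 (1.11 ± 0.17) and the efflux pump gene abcc2 (0.49 ± 0.08) were higher, and the glutathione transferase gene gsto2 (-0.89 ± 0.12) was lower. Oxidative stress genes were balanced likewise, with 7 higher and 7 lower of 54 (median 0.01). The higher oxidative stress calls numbered 4 without P2 replicate 0, and the lower ones 4 without P2 replicate 0 and 4 without P2 replicate 1. The haem oxygenase gene hmox1 had 79.7, 64.1 and 74.5 CPM in P1, 50.9 and 52.8 CPM in P2 and 74.5 CPM in the control (0.49 ± 0.08, edgeR adjusted p = 0.00035), so P2 was below P1 and the control. The autophagy receptor gene sqstm1 (-0.67 ± 0.09) and the glutathione peroxidase gene gpx3 (-0.80 ± 0.13) were lower in P1. Among 31 metal response genes 5 were higher and 1 lower in P1 (median 0.05). The metallothionein gene mt2 had 49.6, 40.4 and 49.7 CPM in P1, 35.1 and 32.9 CPM in P2 and 94.3 CPM in the control (0.46 ± 0.10, edgeR adjusted p = 0.0026), below the control in both phenotypes, and the zinc exporter gene slc30a1a had a log2 fold change of 0.45 ± 0.07. The call of mt2 was lost without P2 replicate 1, and that of slc39a6, the lower gene (-0.23), without P1 replicate 0, P1 replicate 1 or either P2 replicate.

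Lens genes had the median farthest from 0 among the 36 lists. Of 60 tested lens and eye genes, 30 were higher and 0 lower in P1. Those higher numbered 21 without P2 replicate 0 and 25 without P2 replicate 1. The median log2 fold change of P1 over P2 was 0.92, or 0.87 with the 5 members that had no read in P2 set to the lowest fold that 3 reads over both P2 libraries allow. Both phenotypes were below the control, with list medians of -1.51 for P1 and -2.52 for P2 on the log2 scale. In whole-embryo RNA a lower level cannot be told apart from fewer cells of that kind.

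The crystallin gene crybb1 (ENSDARG00000068507, chromosome 10, 45523364 to 45529531, minus strand), which encodes a structural protein of the lens fibre, had 41.1, 33.3 and 40.7 CPM in P1, 17.5 and 19.1 CPM in P2 and 122 CPM in the control (1.07 ± 0.12, edgeR adjusted p = 1.2e-05). The crystallin gene crybb1l1 had 17.2, 16.0 and 16.5 CPM in P1, 6.64 and 5.81 CPM in P2 and 76.7 CPM in the control (1.42 ± 0.15, edgeR adjusted p = 6.3e-06), and cryba2a a log2 fold change of 1.24 ± 0.15. The lens water channel gene mipa had 15.8, 13.7 and 13.8 CPM in P1, 4.81 and 5.59 CPM in P2 and 46.0 CPM in the control (1.47 ± 0.17, edgeR adjusted p = 1.4e-05). The lens connexin gene cx44.1 had 11.6, 9.01 and 9.94 CPM in P1, 2.56 and 2.77 CPM in P2 and 21.3 CPM in the control (1.93 ± 0.18, edgeR adjusted p = 1e-06). In each of these the order was P1 above P2 and both below the control. The gamma crystallin gene crygm2d7 had 10, 7 and 11 reads in P1, no read in either P2 library and 53 reads in the control. With P2 set to 3 reads over both libraries it was 6.91-fold higher in P1. That value leaves counting error in the P1 reads aside. Crystallin genes have close copies, so that reads may be shared between them. The cone phosphodiesterase gene pde6c had 7.73, 7.32 and 8.01 CPM in P1, 2.56 and 2.28 CPM in P2 and 4.34 CPM in the control (1.67 ± 0.20, edgeR adjusted p = 1.5e-05), with P1 above and P2 below the control.

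Pigment genes were higher in P1 as well, with 19 higher and 0 lower of 46 (median 0.26). The melanin synthesis gene dct (ENSDARG00000006008, chromosome 9, 55311304 to 55336342, plus strand) had 54.4, 47.7 and 49.6 CPM in P1, 21.5 and 20.6 CPM in P2 and 133 CPM in the control (1.27 ± 0.10, edgeR adjusted p = 1e-07). The gene tyrp1b, for the next enzyme of the pathway, had 72.0, 59.1 and 65.8 CPM in P1, 26.4 and 27.2 CPM in P2 and 157 CPM in the control (1.29 ± 0.15, edgeR adjusted p = 9.4e-06). Both were lower in P1 and P2 than in the control, and P2 was the lower of the phenotypes. The melanosome matrix genes pmela (0.89 ± 0.11) and pmelb (1.05 ± 0.10) and the pigment cell transporter gene slc2a15b (0.72 ± 0.09) had the same direction. Without P2 replicate 0 the higher genes numbered 14, and without P2 replicate 1 15, while 1 pigment gene was lower without P1 replicate 0.

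Skeletal muscle held the largest number of differing genes of any list: 62 of 102 contractile genes were higher and 6 lower in P1 (median 0.39). Median log2 ratios over the control were -0.44 in P1 and -0.73 in P2. The summed level of the list was 49905, 46489.7 and 46209 CPM in P1, 36370.0 and 36881 CPM in P2 and 64514 CPM in the control. The skeletal actin genes acta1b and acta1a had log2 fold changes of 0.59 ± 0.06 and 0.64 ± 0.06, and acta1b stood at 1313, 1299 and 1357 CPM in P1, 861 and 898 CPM in P2 and 1836 CPM in the control. Of the other preset muscle markers, mylpfa and tnnt3a were higher in P1 too, and the myosin heavy chain gene myhz2 had no call. The myhz2 level was 205, 165 and 165 CPM in P1, below the 217 and 218 CPM in P2. For casq1a (ENSDARG00000038716, chromosome 2, 37742615 to 37756145, plus strand), which encodes the calcium store protein calsequestrin, the libraries held 53.1, 50.1 and 48.2 CPM in P1, 20.5 and 21.6 CPM in P2 and 98.6 CPM in the control (1.26 ± 0.10, edgeR adjusted p = 1.2e-07). The fast myosin light chain gene mylpfb had 169.9, 167 and 145 CPM in P1, 83.2 and 74.8 CPM in P2 and 448 CPM in the control (1.02 ± 0.10, edgeR adjusted p = 1.7e-06).

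Some genes of the sarcomere's Z-disc differed more. The titin cap gene tcap (ENSDARG00000007344, chromosome 3, 21453655 to 21455521, minus strand) had 9.82, 6.37 and 6.82 CPM in P1, 1.16 and 1.19 CPM in P2 and 8.27 CPM in the control (2.71 ± 0.41, edgeR adjusted p = 0.00017), with P1 on either side of the control and P2 below it. The Z-disc gene myoz3a had 6.51, 6.03 and 6.09 CPM in P1, 1.83 and 2.06 CPM in P2 and 15.11 CPM in the control (1.67 ± 0.19, edgeR adjusted p = 1.1e-05). The 6 lower genes included the giant titin gene ttnb (-0.55), named after its value was seen. By DESeq2 the lower muscle genes numbered 2. With the P1 and P2 libraries alone, 72 muscle genes were higher and 11 lower. Without a filter 69 were higher and 11 lower, and without P1 replicate 0, 56 and 9. The lower genes numbered 3 without P1 replicate 1, 2 without P1 replicate 2, 2 without P2 replicate 0 and 1 without P2 replicate 1. Muscle precursor genes were split, 7 higher and 4 lower of 37 (median -0.07). Their lower calls by DESeq2 numbered 2. With the P1 and P2 libraries alone, 7 precursor genes were higher and 10 lower. The muscle determination gene myod1 (0.35 ± 0.08) was higher in P1 and the myoblast fusion gene jam2a (-0.57 ± 0.10) lower. The call of myod1 was lost without P2 replicate 1, and the higher precursor genes numbered 3 without P2 replicate 0 and 2 without P2 replicate 1, the lower ones 2 without P1 replicate 0, 2 without P1 replicate 2, 1 without P2 replicate 0 and 1 without P2 replicate 1.

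The actinodins are proteins of the actinotrichia, the rods that stiffen the larval fin fold, and all 4 were higher in P1. Of these and1, and2 and and3 were below the control in both phenotypes. The gene and1 (ENSDARG00000088514, chromosome 24, 27076744 to 27079580, minus strand) had 25.4, 21.5 and 26.0 CPM in P1, 7.98 and 8.26 CPM in P2 and 83.2 CPM in the control (1.58 ± 0.16, edgeR adjusted p = 2e-06). The gene and2 had 4.07, 4.34 and 4.84 CPM in P1, 1.58 and 2.06 CPM in P2 and 57.7 CPM in the control (1.26 ± 0.23, edgeR adjusted p = 0.0008). The gene and3 had 2.56, 2.64 and 1.39 CPM in P1, 0.244 and 0.272 CPM in P2 and 17.2 CPM in the control (3.06 ± 0.59, edgeR adjusted p = 0.0013). The remaining member, and4, had 1.57, 1.42 and 1.92 CPM in P1, 0.792 and 0.869 CPM in P2 and 1.34 CPM in the control (0.97 ± 0.30, edgeR adjusted p = 0.03). P1 was thus a little above the control and P2 below it, all at few reads. The call of and4 was lost without P1 replicate 0, P1 replicate 2 or either P2 replicate. Reads shared between actinodin copies were not told apart.

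Of the other fin fold genes tested, 8 were lower in P1 and 19 had no call. The gene frem1b, for a protein that holds epidermis to the underlying matrix, was lower (-0.70 ± 0.11, edgeR adjusted p = 0.00016), and the fin fold transcription factor gene sp8a (-0.40 ± 0.07) too. The 31 genes of the list, actinodins included, comprised 4 higher and 8 lower ones (median 0.04). Lower fin fold genes numbered 5 by DESeq2. The lower calls numbered 4 without P1 replicate 1, 4 without P1 replicate 2, 4 without P2 replicate 0 and 3 without P2 replicate 1, and 6 with a trend on gene length removed. Several of these genes are long, and gene length moved with the contrast as described below.

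Collagen and matrix genes were about as often higher (22) as lower (21) among 119 (median 0.03). The cartilage and notochord collagen gene col9a1 (0.41 ± 0.06), the matrix adhesion gene tgfbi (0.40 ± 0.07) and the tenascin gene tnw (0.58 ± 0.09) were higher in P1. The protease inhibitor gene timp2a (-0.60 ± 0.09) and the matricellular gene cyr61 (-0.50 ± 0.08) were lower. Some single genes, not all of them in the list, differed more. The collagen galactosyltransferase gene GLT25D1 (2 of 3) had 33.3, 25.7 and 23.1 CPM in P1, 5.79 and 5.38 CPM in P2 and 28.3 CPM in the control (2.301 ± 0.15, edgeR adjusted p = 1.6e-08). The gene LOXL2 (2 of 3), a lysyl oxidase that cross-links collagen, had 5.93, 6.71 and 5.23 CPM in P1, 2.56 and 1.63 CPM in P2 and 7.43 CPM in the control (1.52 ± 0.26, edgeR adjusted p = 0.00046). In both genes P2 was the farther from the control. The microfibril-associated gene MFAP4 (12 of 13), 1 of many copies and not in the list, had 6.86, 4.47 and 5.03 CPM in P1, 0.731 and 1.09 CPM in P2 and 4.84 CPM in the control (2.57 ± 0.33, edgeR adjusted p = 3.3e-05). The higher matrix genes numbered 7 without P2 replicate 0 and 10 without P2 replicate 1.

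Notochord genes were balanced, 9 higher and 10 lower of 50 (median 0.04). The proteoglycan gene epyc (0.59 ± 0.10) and the caveola gene ptrfa (0.70 ± 0.12) were higher in P1, and the laminin gene lamb1a, which is split over a pair of gene identifiers at -0.43 each, was lower. The lower notochord genes numbered 6 without P2 replicate 0 and 4 without P2 replicate 1, and the higher ones 4 without P2 replicate 0 and 5 without P2 replicate 1.

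Tailbud and segmentation genes were lower in P1. Of 88, 23 were lower and 5 higher (median -0.11). The lower ones numbered 12 without P2 replicate 0 and 11 without P2 replicate 1. The higher ones numbered 1 without P2 replicate 0 and 2 without P2 replicate 1. The paraxial mesoderm factor gene tbx6 (ENSDARG00000011785, chromosome 12, 4593057 to 4603583, plus strand) had 12.8, 14.2 and 11.7 CPM in P1, 25.2 and 25.3 CPM in P2 and 5.34 CPM in the control (-0.97 ± 0.11, edgeR adjusted p = 7.6e-06), above the control in both phenotypes. The retinoic acid-degrading enzyme gene cyp26a1 (ENSDARG00000033999, chromosome 12, 9708963 to 9712555, minus strand), active in the tailbud, had 75.9, 73.6 and 76.2 CPM in P1, 116 and 113 CPM in P2 and 35.8 CPM in the control (-0.60 ± 0.06, edgeR adjusted p = 2.1e-06). The P2 level exceeded P1 in each, and P1 exceeded the control. The FGF feedback phosphatase gene dusp6 (-0.45 ± 0.06) and greb1l (-0.48 ± 0.07) were lower in P1, and the segmentation clock partner gene her13 was higher (0.68 ± 0.09), at 26.7, 29.9 and 27.8 CPM in P1, 19.4 and 15.6 CPM in P2 and 47.1 CPM in the control. In her13 both phenotypes were below the control.

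Hox genes pattern the body along its length. Among 26 anterior and central hox genes 0 were higher and 10 lower in P1 (median -0.19). The lower hox genes numbered 3 without P2 replicate 0 and 4 without P2 replicate 1. The hindbrain genes hoxb3a (-0.38 ± 0.06), hoxc3a (-0.42 ± 0.06) and hoxa3a (-0.30 ± 0.06) and the trunk gene hoxb7a (-0.59 ± 0.12) were lower, and the call of hoxb7a was lost without P2 replicate 0. The hindbrain gene hoxb1b was lower too (-0.28 ± 0.07), a call lost without either P2 replicate. Of 23 posterior hox genes 3 were higher (hoxb13a, hoxc10a and hoxd13a) and 2 lower (hoxd9a and hoxb10a), with a median of 0.07. The higher calls numbered 1 without P1 replicate 2, and the lower ones 1 without P1 replicate 0 and none without P1 replicate 1 or 2. Each of these posterior calls was lost without P2 replicate 1 and in DESeq2, and without P2 replicate 0 only hoxb13a and hoxd13a of them were called.

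Neuronal genes were higher in P1, 33 of 126 against 3 lower (median 0.20). Neuronal genes called higher numbered 12 without P2 replicate 0 and 15 without P2 replicate 1. Those called lower numbered 1 without P2 replicate 0. Preset neuron markers were split, with elavl3 and elavl4 higher in P1 and gap43 and NEFM (1 of 2) without a call. In NEFM (1 of 2), a neurofilament gene, the P1 libraries held 13.5, 12.7 and 13.6 CPM. The P2 libraries held 12.97 and 12.6 CPM and the control 21.6 CPM. The neurofilament gene nefm had 23.6, 25.7 and 22.7 CPM in P1, 10.05 and 8.36 CPM in P2 and 40.6 CPM in the control (1.39 ± 0.10, edgeR adjusted p = 7.8e-08), P2 being the farther from the control. The forebrain neuron factor gene neurod6b (1.18 ± 0.19), the microtubule regulator gene STMN3 (0.64 ± 0.11) and the synuclein gene sncga (0.55 ± 0.09) were higher as well, and stmn1a, a tubulin-binding gene also used by dividing cells, was lower (-0.37 ± 0.06). Among 93 neural progenitor genes 14 were higher and 11 lower in P1 (median 0.00). DESeq2 called 9 of them higher. The forebrain gene dlx1a (1.06 ± 0.14), the intermediate filament gene nes (0.48 ± 0.07) and the radial glia gene fabp7a (0.59 ± 0.09) were higher, while the ventral neural tube gene nkx6.2 (-0.49 ± 0.06) and the Notch target her6 (-0.45 ± 0.08) were lower. The higher progenitor genes numbered 8 without P1 replicate 0, 5 without P2 replicate 0 and 6 without P2 replicate 1, and the lower ones 7 without P2 replicate 0 and 7 without P2 replicate 1.

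**Figure D3:**
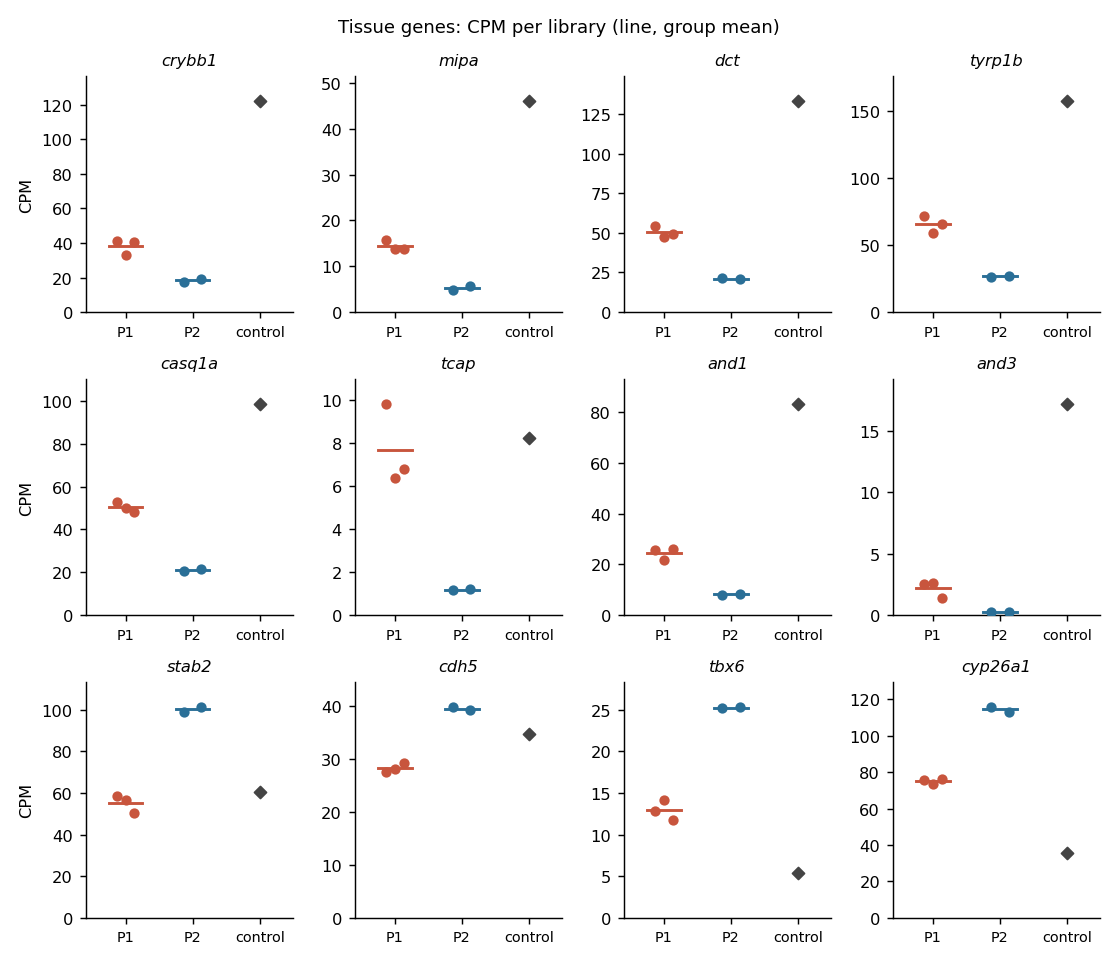
CPM per library (vertical axis from 0, scale differing by gene) of 12 lens, pigment, muscle, fin fold, vessel and tailbud genes in P1, P2 and the control, with lines at the group means. The P1 libraries lie above P2 in crybb1, mipa, dct, tyrp1b, casq1a, tcap, and1 and and3, and below P2 in stab2, cdh5, tbx6 and cyp26a1.

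Vessel genes were lower in P1. Of 58 endothelial genes 21 were lower and 3 higher (median -0.20). The lower vessel genes numbered 11 without P2 replicate 0 and 14 without P2 replicate 1. The scavenger receptor gene stab2 (ENSDARG00000045748, chromosome 4, 9786319 to 9828070, plus strand), expressed by venous endothelium, had 58.6, 56.6 and 50.4 CPM in P1, 99.0 and 101 CPM in P2 and 60.5 CPM in the control (-0.86 ± 0.07, edgeR adjusted p = 5.5e-07). The endothelial cadherin gene cdh5 had 27.5, 28.0 and 29.3 CPM in P1, 39.7 and 39.1 CPM in P2 and 34.7 CPM in the control (-0.48 ± 0.07, edgeR adjusted p = 9.9e-05). P1 was below the control in both, and P2 above it. Of the other preset vessel markers, kdrl was lower in P1 and fli1a had no call, and both phenotypes were below the control. The kdrl level was 31.0, 34.3 and 32.5 CPM in P1, 38.2 and 39.5 CPM in P2 and 44.7 CPM in the control. For fli1a it was 38.9, 38.3 and 35.6 CPM in P1, 36.5 and 39.3 CPM in P2 and 50.6 CPM in the control. For stab2, with 8087 exonic bases, the log2 ratio of P1 over the control was only -0.13. The median of that ratio over genes of 8000 to 12000 exonic bases was -0.15, so the place of P1 below the control is uncertain for stab2. The C-type lectin gene clec14a (-0.62 ± 0.09) and the mannose receptor gene mrc1a (-0.76 ± 0.11) were lower in P1, and the water channel gene aqp1a.1 was higher (0.54 ± 0.06). The other higher members were aplnra (0.90) and acta2 (1.44), the smooth muscle actin. Medians over the control were -0.15 in P1 and 0.07 in P2 on the log2 scale.

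Blood lists held members of both directions. Red cell and haem genes had 6 higher and 6 lower of 43 (median -0.03). Their higher calls numbered 3 without P2 replicate 0 and 3 without P2 replicate 1, their lower calls 4 without P2 replicate 0 and 3 without P2 replicate 1, and with the P1 and P2 libraries alone 13 were higher and 10 lower. The transferrin receptor gene tfr1b, which imports iron, had 3.37, 3.73 and 4.24 CPM in P1, 9.68 and 9.50 CPM in P2 and 6.43 CPM in the control (-1.35 ± 0.15, edgeR adjusted p = 6.6e-06), and the mitochondrial iron importer gene slc25a37 was lower in P1 too (-0.68 ± 0.12). The globin gene hbae1 had 40.3, 39.8 and 34.2 CPM in P1, 21.3 and 23.3 CPM in P2 and 53.9 CPM in the control (0.77 ± 0.12, edgeR adjusted p = 0.00016), and the red cell anion exchanger gene slc4a1a (0.41 ± 0.09) was higher, a call lost without P2 replicate 1. The symbol hbae1 stands for a pair of gene identifiers, and globin copies may share reads. Of the preset red cell markers, alas2 was higher in P1 and the globin gene hbae3 had no call. The hbbe1.1 entries were split between higher and no call. Myeloid and inflammation genes had 8 higher and 16 lower of 67 (median -0.12). DESeq2 called 5 of them higher. The lower myeloid genes numbered 10 without P2 replicate 0 and 10 without P2 replicate 1. The higher ones numbered 5 without P2 replicate 0. The preset neutrophil markers went against this tilt, and both were higher in P1. The lysozyme gene lyz had 12.3, 12.1 and 10.0 CPM in P1, 6.82 and 6.30 CPM in P2 and 28.3 CPM in the control (0.81 ± 0.14, edgeR adjusted p = 0.00062). The myeloperoxidase gene mpx had 3.54, 4.201 and 3.05 CPM in P1, 1.58 and 1.74 CPM in P2 and 11.7 CPM in the control (1.11 ± 0.23, edgeR adjusted p = 0.0026). Both were below the control in P1 and P2. The macrophage enzyme gene irg1l (-1.25 ± 0.17) and the NF-κB inhibitor gene nfkbiab (-0.44 ± 0.06) were lower, while the complement gene cfb (0.77 ± 0.10) and the cathepsin gene ctssb.1 (0.85 ± 0.14) were higher. Of 36 heart genes 8 were higher, among them the light chain gene MYL4 (0.42 ± 0.06) and the flow-responsive factor gene klf2b (0.61 ± 0.08), and 4 were lower, among them the hyaluronan synthase gene has2 (-0.64 ± 0.14). Of the preset heart markers none was higher in P1: myl7 and cmlc1 had no call and vmhc was lower. The vmhc level was 57.2, 51.2 and 51.9 CPM in P1 and 66.7 and 62.7 CPM in P2. By DESeq2 the higher heart genes numbered 4 and the lower ones 2. The heart median was -0.0023, and the higher heart genes numbered 4 without P1 replicate 0, 3 without P2 replicate 0 and 2 without P2 replicate 1, and the lower ones 1 without P1 replicate 1, 1 without P1 replicate 2, 1 without P2 replicate 0 and 1 without P2 replicate 1.

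Genes of the yolk syncytial layer and lipid transport were higher in P1, 30 of 70 against 8 lower (median 0.21). The retinol carrier gene rbp4 (ENSDARG00000077505, chromosome 12, 5737656 to 5742066, plus strand), a secreted plasma protein, had 170.3, 172 and 198 CPM in P1, 70.23 and 70.9 CPM in P2 and 324 CPM in the control (1.35 ± 0.07, edgeR adjusted p = 1.3e-09), with P2 the farther below the control. The nuclear receptor gene hnf4a, a driver of secreted plasma protein genes, had 22.2, 22.4 and 20.1 CPM in P1, 10.4 and 10.5 CPM in P2 and 10.0 CPM in the control (1.05 ± 0.10, edgeR adjusted p = 2.3e-06), and here P2 was at the level of the control. The clotting gene f2 (0.65 ± 0.06), for prothrombin, and kng1 (0.75 ± 0.07), for kininogen, were higher, and zgc:194131 was lower (-0.92 ± 0.07). The apolipoprotein markers apoa2 and apobl, which define the layer, had no call, with 1298, 1292 and 1384 CPM of apoa2 in P1 and 1198 and 1197 CPM in P2. The higher calls numbered 24 without P2 replicate 0 and 25 without P2 replicate 1, and the lower ones 5 without P2 replicate 0.

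Sterol and fatty acid genes moved both ways, 10 higher and 13 lower of 73 (median 0.02). The higher sterol calls numbered 4 without P2 replicate 0 and 4 without P2 replicate 1, and the lower ones 9 without P2 replicate 0 and 9 without P2 replicate 1. The cholesterol exporter gene abca1a had 34.0, 30.7 and 35.0 CPM in P1, 69.1 and 67.2 CPM in P2 and 49.7 CPM in the control (-1.03 ± 0.09, edgeR adjusted p = 3.8e-07), with P1 below and P2 above the control. The sterol sensor partner gene insig1 (-0.96 ± 0.10), the lipase inhibitor gene angptl4 (-0.79 ± 0.07) and the LDL receptor regulator gene mylipa (-0.56 ± 0.09) were lower in P1 as well. In glucose metabolism 20 of 57 genes were higher and 8 lower (median 0.13). The higher glucose genes numbered 6 without P2 replicate 0 and 8 without P2 replicate 1. The lower ones numbered 5 without P1 replicate 0, 4 without P2 replicate 0 and 5 without P2 replicate 1. The muscle genes pygma, for glycogen phosphorylase (0.69 ± 0.08), and pgam2, for phosphoglycerate mutase (0.69 ± 0.09), were higher in P1, and pck1, which starts glucose synthesis, was lower, at 20.3, 15.4 and 22.5 CPM in P1, 38.6 and 39.4 CPM in P2 and 19.8 CPM in the control (-1.004 ± 0.10, edgeR adjusted p = 3.3e-06).

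Transcripts of the mitochondrial genome were higher in P1. Of 13 protein genes 12 were higher and 0 lower (median 0.36). Those higher numbered 9 without P2 replicate 0 and 10 without P2 replicate 1. The complex I gene mt-nd2 (ENSDARG00000063899, the mitochondrial genome, 4993 to 6039, plus strand) had 1814, 1663 and 1806 CPM in P1, 1097 and 1155 CPM in P2 and 1352 CPM in the control (0.65 ± 0.08, edgeR adjusted p = 2.3e-05). The cytochrome oxidase gene mt-co3 had 4778, 4528 and 4735 CPM in P1, 3631 and 3540.0 CPM in P2 and 3424 CPM in the control (0.38 ± 0.05, edgeR adjusted p = 8.6e-05). The mitochondrial genome took 3.76%, 3.47% and 3.72% of counts in P1, 3.02% and 2.97% in P2 and 2.79% in the control, so P2 lay nearer the control than P1. Nuclear genes of oxidative phosphorylation had 7 higher and 6 lower members of 79 (median 0.01). In edgeR their higher calls numbered 2 without P2 replicate 0 and 3 without P2 replicate 1. Their lower calls numbered 3 without P1 replicate 1, none without P2 replicate 0 and 2 without P2 replicate 1. The cytochrome oxidase isoform gene cox4i2, known in mammals to respond to low oxygen, was lower in P1 (-1.11 ± 0.26, edgeR adjusted p = 0.0061), and that call was lost without P2 replicate 0.

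Ribosomal, proteasome and replication genes were more often lower than higher in P1, by small amounts. In the fit of all 9 libraries, the share of lower genes did not exceed the background for the proteasome, and for ribosomal proteins it was 13.3%. Among genes averaging over 5 CPM, 13.1% of those with up to 1000 exonic bases were lower, and 11.2% with 1000 to 2000. In that fit the ribosomal share of lower genes thus stands out little, if at all. With the P1 and P2 libraries alone, 24 ribosomal genes were lower and 2 higher, and 9 proteasome genes lower and 1 higher. Over all 18758 genes tested there, 2606 were lower and 2664 higher. With a trend on gene length removed 15 ribosomal genes were lower and 2 higher, and without a filter 16 and 1. Of 75 cytosolic ribosomal protein genes 10 were lower and 1 higher (median -0.06), the higher call being lost without P2 replicate 1 and the lower ones numbering 4 without P2 replicate 0 and 4 without P2 replicate 1, and 20 when libraries were scaled by their totals alone. The gene rpl36 had 405, 376 and 449 CPM in P1, 595 and 606 CPM in P2 and 483 CPM in the control (-0.55 ± 0.07, edgeR adjusted p = 4.4e-05). Among 49 proteasome genes 4 were lower (median -0.10), psme2, an immune-type activator, by the most (-0.58 ± 0.12), and the lower calls in edgeR numbered 1 without P1 replicate 0, 2 without P1 replicate 1, none without P2 replicate 0 and 2 without P2 replicate 1. For 129 genes of DNA replication and mitosis, 20 were lower and 9 higher in P1 (median -0.07), the lower including the cell cycle kinase gene cdk6 (-0.44 ± 0.07) and the replication licensing gene CDC6 (-0.36 ± 0.06). The lower calls numbered 8 without P2 replicate 0 and 9 without P2 replicate 1. In edgeR the higher ones numbered 5 without P1 replicate 1, 5 without P1 replicate 2, none without P2 replicate 0 and 2 without P2 replicate 1.

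**Figure D4:**
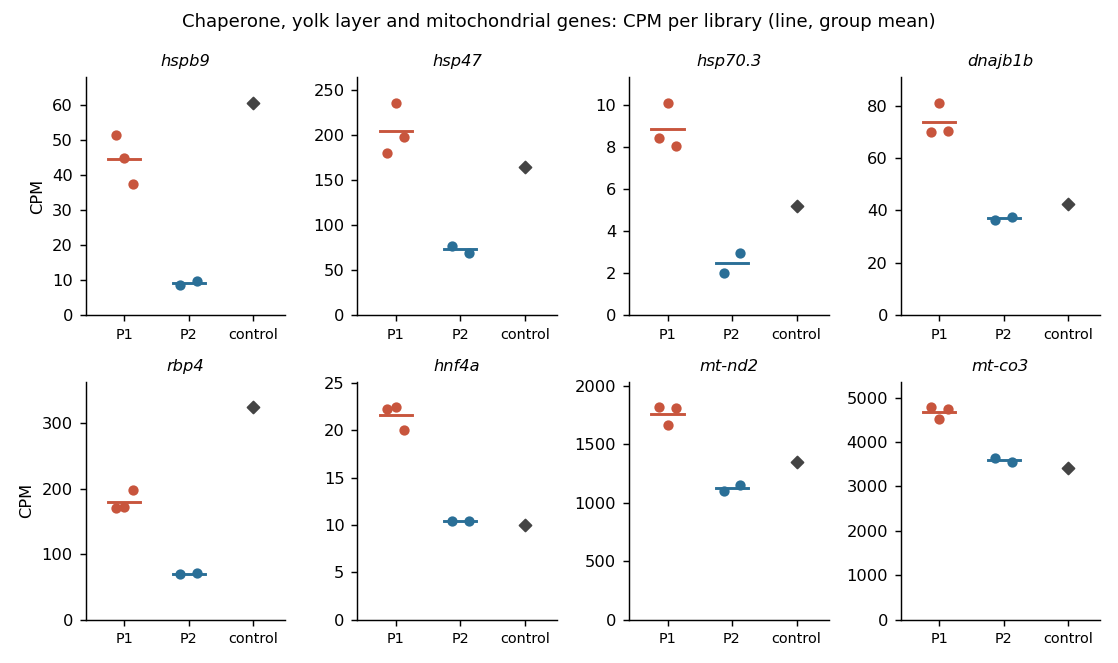
CPM per library (vertical axis from 0, scale differing by gene) of 8 chaperone, yolk layer and mitochondrial genes in P1, P2 and the control, with lines at the group means. All 3 P1 libraries lie above both P2 libraries in each gene, and in all but hspb9 and rbp4 the P1 libraries also lie above the control.

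Clock genes were lower in P1, 17 of 56 against 2 higher (median -0.12). With the P1 and P2 libraries alone, 22 clock genes were lower and 10 higher, and without a filter 21 and 4. The lower calls numbered 10 without P1 replicate 0, 11 without P1 replicate 1, 8 without P2 replicate 0 and 10 without P2 replicate 1, and 8 by DESeq2. The higher clock calls numbered 1 without P1 replicate 0, 1 without P1 replicate 2, 1 without P2 replicate 0 and 1 without P2 replicate 1. The repressor gene cry1b had 8.13, 9.01 and 9.07 CPM in P1, 16.3 and 16.0 CPM in P2 and 7.93 CPM in the control (-0.89 ± 0.11, edgeR adjusted p = 1.7e-05). The output factor gene tefb had 26.4, 27.0 and 26.6 CPM in P1, 43.0 and 45.5 CPM in P2 and 30.0 CPM in the control (-0.73 ± 0.08, edgeR adjusted p = 8.5e-06). The repressor gene per1b was lower (-0.58 ± 0.07), and the cryptochrome gene cry2a was higher, at 180.3, 177 and 181 CPM in P1, 112 and 109 CPM in P2 and 127 CPM in the control (0.70 ± 0.06, edgeR adjusted p = 1.1e-06). The light-induced gene per2 had no call (-0.29 ± 0.16, edgeR adjusted p = 0.22), with 71.5, 70.5 and 75.9 CPM in P1, 83.4 and 94.5 CPM in P2 and 21.8 CPM in the control. No source used here gives the hour of the light cycle at which each phenotype was collected.

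Glucocorticoid target genes had 17 lower and 7 higher members of 58 in P1 (median -0.09). The arrestin-like gene arrdc3b had 57.2, 50.4 and 57.7 CPM in P1, 141 and 140.3 CPM in P2 and 21.4 CPM in the control (-1.35 ± 0.08, edgeR adjusted p = 7.1e-09), and its relative arrdc2 (-0.74 ± 0.07) and the thioredoxin inhibitor gene txnipa (-0.74 ± 0.06) were lower in P1 too. The amino acid transporter gene slc38a2 was higher, at 79.9, 73.0 and 82.9 CPM in P1, 43.1 and 41.9 CPM in P2 and 101 CPM in the control (0.89 ± 0.09, edgeR adjusted p = 4.4e-06). The higher calls numbered 3 without P2 replicate 0 and 1 without P2 replicate 1.

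Epidermal and ionocyte genes were split, 13 higher and 18 lower of 87 (median 0.03). The preset epidermal markers krt4, krt5 and cyt1 had no call, and both phenotypes were below the control in each. The calcium-binding gene icn (-0.72 ± 0.07) and the secretory gene agr2 (-0.48 ± 0.07) were lower in P1, and the keratin gene krt1-19d (1.24 ± 0.17) and the carbonic anhydrase gene ca15a (0.72 ± 0.08) were higher. The lower calls numbered 8 without P2 replicate 0 and 9 without P2 replicate 1, and the higher ones 8 without P2 replicate 1. In the hatching gland, whose enzymes digest the egg envelope, he1a had 1126, 1071 and 1101 CPM in P1, 1531 and 1470.1 CPM in P2 and 1141 CPM in the control (-0.45 ± 0.05, edgeR adjusted p = 1.8e-05). Its copy he1b had 873, 880.3 and 848 CPM in P1, 1250.3 and 1177 CPM in P2 and 843 CPM in the control (-0.49 ± 0.06, edgeR adjusted p = 1.6e-05). These are close copies whose reads may be shared. In both copies P1 was close to the control and P2 above it. The other preset gland marker, wu:fa26c03 (ctslb), had no call, with both phenotypes below the control. It had 170.5, 195.9 and 170.2 CPM in P1, 191.5 and 193.1 CPM in P2 and 224.5 CPM in the control. Of 11 gland genes 3 were lower and 1 higher (median -0.09). The higher gland call was lost without P1 replicate 1, P1 replicate 2 or either P2 replicate.

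Further genes were also among the largest differences. The haemopexin-like gene HPX (1 of 2), whose namesake binds free haem, had 81, 61 and 116 reads in P1, 2 and 1 reads in P2 and 89 reads in the control. The ratio of pooled reads of P1 over P2 was 63.6, with an exact 95% interval of 21.5 to 311 that covers counting error only, and P2 alone was far from the control. The splicing factor copy SF3B3 (1 of 2) had 0.174, 0.678 and 1.85 CPM in P1, 9.14 and 10.102 CPM in P2 and 0.918 CPM in the control (-3.45 ± 0.34, edgeR adjusted p = 2.3e-06), and its P1 libraries differed widely among themselves. The RNA helicase gene ddx43 had 1.22, 2.304 and 1.46 CPM in P1, 9.87 and 8.47 CPM in P2 and 2.42 CPM in the control (-2.48 ± 0.24, edgeR adjusted p = 1.6e-06). The co-chaperone gene dnajc7 had 4.01, 6.57 and 5.70 CPM in P1, 18.9 and 19.6 CPM in P2 and 4.51 CPM in the control (-1.84 ± 0.13, edgeR adjusted p = 7.4e-08). The volume-regulated channel gene lrrc8db (-1.61 ± 0.18), the integrin gene itga10 (-1.44 ± 0.19), the septin copy SEPT10 (1 of 2) (-1.93 ± 0.17) and the nuclear envelope gene syne1b (-1.58 ± 0.15) were lower in P1.

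Gene length moved with the contrast at the long end. Among genes averaging over 5 CPM, the median log2 fold change of P1 over P2 was -0.01 for 3745 genes with 1000 to 2000 exonic bases, -0.18 for 306 genes of 8000 to 12000 and -0.32 for 74 genes above 12000. The P1 libraries differed among themselves in this respect: against the P2 mean, the longest class stood at -0.09 in P1 replicate 0, -0.44 in replicate 1 and -0.40 in replicate 2, while the P2 libraries differed by 0.0048. The gene syne1b, with 26944 exonic bases, and the long muscle gene ttnb belong to the longest genes. The genes stab2 and abca1a, with 8087 and 9968 exonic bases, fall in the class of 8000 to 12000. With each library's trend on length removed, 188 of 189 named and called genes kept their call. For syne1b the log2 fold change was then -1.18, against -1.58 without that step.

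**Figure D5:**
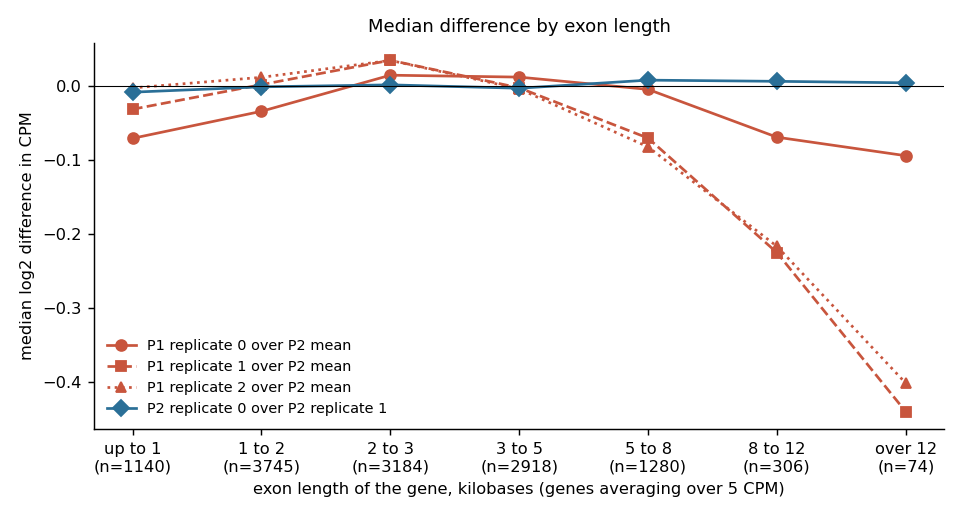
Median log2 difference in CPM (vertical axis) by exonic length (horizontal axis, with the number of genes) for each P1 library over the P2 mean and for P2 replicate 0 over P2 replicate 1. P1 replicates 1 and 2 reach -0.44 and -0.40 in genes above 12 kilobases, P1 replicate 0 reaches -0.09, and the P2 pair stays near 0.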

How the data were processed

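The authors deposited raw counts per gene and library in 1 table per phenotype, per the file headers, together with a variance-corrected log2 ratio over the control that the authors had made. Reads had been aligned to Zv9 with Novoalign, per the submitters' processing notes, and no source used here gives the counting tool, strand setting or annotation. Genes that overlap on opposite strands may therefore share reads. Coordinates are 1-based on Zv9. Tables were joined by gene identifier, and 5723 of 32312 genes had no read.

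All 9 libraries entered 1 edgeR 4.0.16 quasi-likelihood fit in R 4.3.3, with limma 3.58.1, after filterByExpr (minimum count 10, minimum total 15) and TMM scaling. There was 1 term, group, with 5 residual degrees of freedom, a median of 12.4 prior degrees of freedom and a common biological coefficient of variation of 0.0565. Tests were two-sided and adjusted by Benjamini-Hochberg over 19835 genes at 0.05, and the SE is the log2 fold change divided by the square root of F. The fit was tested on simulated data with known changes. For P1 against P2 it recovered 55.6% of 1.5-fold, 86.6% of 2-fold and 96.9% of 4-fold changes. It called 18 of 19237 unchanged genes. These 18 stand beside only 63, 67 and 65 changed genes at the 3 folds, all changed in P1 alone. In the data far more genes were called (4072), so the simulated rates of recovery and of false calls need not hold there. A missing call does not show that a small difference is absent. Libraries were prepared from poly(A) RNA with a TruSeq kit, per the labels' protocols.

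Genes were named by rule: the 14 largest differences each way with at least 5 CPM, an assigned symbol and no overlap; up to 5 members with the smallest p of each of 36 lists; and a fixed set of AHR, stress, metal, clock and fin fold genes. Names outside the rule were chosen after their values were seen. The members and lists were chosen with earlier results of these data known. Some lists share genes. Of 2272 list entries, 1863 matched a symbol in the tables, 168 matched through reference gene names and 241 did not match, and 6 lists were filled by a symbol pattern. Alternatives were DESeq2 1.42.0, RLE factors, library totals, other filters, a minimum change, other sample sets, the replicate block, each replicate left out and, chosen after seeing the data, a trend on length. The text prints those of the named genes on which a comparison turns.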

Additional observations from a re-analysis of the deposited data

Results flagged for a closer look

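For 5 of the named genes every P1 library lay on one side of the control and every P2 library on the other, each group mean by at least 1.5-fold, and the P1 to P2 difference passed the edgeR test. The named genes were picked largely by that difference, and the count over all called genes is not given. The side taken by each phenotype rests on 1 control library. The prolyl hydroxylase gene egln3 had 2.96, 2.57 and 2.58 CPM in P1, 50.7 and 49.6 CPM in P2, 2.24, 4.13 and 4.42 CPM in P3 and 13.2 CPM in the control, a log2 fold change of P1 over P2 of -4.20. The septin gene SEPT10 (1 of 2) had 2.498, 2.51 and 3.11 CPM in P1, 10.4 and 10.16 CPM in P2, 7.79, 5.09 and 7.18 CPM in P3 and 5.34 CPM in the control (-1.93). For syne1b, a nuclear envelope gene whose length puts it among those that differed between the P1 libraries, the values were 15.104, 10.298 and 9.54 CPM in P1, 34.9 and 35.5 CPM in P2, 20.5, 29.0 and 24.7 CPM in P3 and 18.9 CPM in the control (-1.58). The cone gene pde6c went the other way, with 7.73, 7.32 and 8.01 CPM in P1, 2.56 and 2.28 CPM in P2, 5.36, 4.01 and 3.196 CPM in P3 and 4.34 CPM in the control (1.67), as did the chaperone gene hsp70.3, with 8.42, 10.09 and 8.01 CPM in P1, 2.01 and 2.93 CPM in P2, 10.4, 5.40 and 5.65 CPM in P3 and 5.18 CPM in the control (1.82).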

How the results depend on the processing

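None of the 189 named and called genes changed direction under any of 15 alternatives. Of the uncalled ones, cyp1a and ahr2 changed sign with the length trend removed (-0.006 and 0.031, against 0.03 and -0.06), and per2, psmd14 and tiparp gained a call with the P1 and P2 libraries alone. The counts of genes higher and lower in P1 (2106 and 1966) came to 1294 higher and 1177 lower by DESeq2, 172 higher and 148 lower when a change of more than 1.5-fold was required, and 2664 higher and 2606 lower with the P1 and P2 libraries alone. By list DESeq2 mostly called fewer genes as well, and its list counts are printed above only in part. With the P1 and P2 libraries alone most list counts were higher, in both directions, and they too are printed only in part. Leaving out 1 replicate gave 915 to 1689 higher and 810 to 1618 lower genes, the lowest with 1 P2 library. The other scalings and filters, the 8 exposed libraries and the length trend gave counts within 1.5 times of these. Requiring more than 1.5-fold ended 127 of 189 calls of named genes, DESeq2 9, and leaving out a P2 replicate 18 or 19. A minimum change lowers the counts by construction, and the cause of the other shifts was not tested.

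With the replicate number as a replicate block, fitted on the 8 exposed libraries, 1607 higher and 1463 lower genes were called and 6 named genes lost their call (cyp1d1, hoxd9a, hoxb10a, kitlga, hoxd13a and and4). Same-numbered P1 and P2 libraries did not deviate together (correlations across genes of -0.02 and -0.10), so the numbers are not taken to pair the libraries.

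With 2 P2 libraries and pooled embryos, the spread within P2 rests on 1 difference. A fold from few reads is imprecise.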

Other observations

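The following 5 plasma protein genes outside the lists were picked because they were higher in P1, so they say nothing of such genes as a group. The complement genes c9, c8a and c8b, whose products build the pore of the membrane attack complex, had log2 fold changes of 1.36, 1.302 and 1.41, all with an edgeR adjusted p below 0.05. For c9 the libraries held 125, 117 and 125 CPM in P1, 48.1 and 47.4 CPM in P2 and 199 CPM in the control. The anticoagulant gene proc (1.35), for protein C, and vtna (1.297), for vitronectin, had the same direction, and proc stood at 5.63, 6.03 and 6.69 CPM in P1, 2.68 and 2.12 CPM in P2 and 9.02 CPM in the control. In each of c9 and proc the P1 libraries lay above both P2 libraries.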
